A study of Mus musculus with 4 samples.

Results

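Lenses of 2-month-old N101D mice were compared with lenses of 2-month-old WT mice. The comparison takes the FPKM of 1 library from each group, so it gives values and differences and has no replicate error and no test. FPKM is the count of sequenced fragments scaled to the length of the transcript and to the depth of the library. A symbol entered when it had a named row on a chromosome other than X or Y, a usable status and 1 FPKM or more in either library, and the row of highest mean FPKM stood for it. These conditions kept 10646 of the 21505 symbols in the tables, and all of them are described below by counts, by 45 gene lists and by named genes. The difference is always log2(FPKM + 1) in N101D minus WT, which understates the difference of genes near 1 FPKM. A gene is called lower or higher here when that difference is 1 or more in size, a 2-fold difference.

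N101D stands for C57BL/6 mice with a transgene for alpha A crystallin that carries the N101D change, an aspartate in place of an asparagine as deamidation leaves it. WT stands for C57BL/6 mice with a transgene for unmodified alpha A crystallin, so that both groups are transgenic and the WT group is not a line without a transgene. The same pair of lines gave 1 library each at 4 months, from total lens RNA made into TruSeq libraries. The promoter of the transgenes, the number of founder lines, the number of animals or lenses in a library and their sex are not given in the sources used here, and no row of the tables names a transgene.

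Alpha A crystallin is a small heat shock protein and, with alpha B crystallin, the main chaperone of the lens, where it holds damaged proteins in solution. The lens is a sheet of epithelial cells over a mass of elongated fiber cells, inside a collagenous capsule that hangs from the ciliary body by the zonule. The ciliary body and iris, next to the lens, carry pigmented and unpigmented epithelia that secrete aqueous humour and melanin-bearing cells, and they are vascular, unlike the lens. Deamidation of crystallins accumulates in ageing lenses and in cataract.

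Both 2-month libraries had the transcript profile of lens. The 16 crystallin genes summed to 536491 FPKM in N101D and 473906 FPKM in WT. The spacing of low FPKM values gave a depth of about 24400000 fragments for the N101D library and 49500000 for the WT library. At those depths 89.1% of 2333 values in N101D and 95.7% of 1730 values in WT came out within 0.05 of a whole read. A gene at 1 FPKM then rests on about 24.4 reads per kilobase in N101D, with an exact 95% Poisson interval of 15.7 to 36.2, and on 49.5 in WT, with an interval of 36.7 to 65.3, which cover counting error only. Within each chromosome the tables list loci in runs that start again from low coordinates. The first and second runs hold most genes, while the third holds further loci, some of extreme FPKM. The row of highest FPKM came from the third run for 297 of the 10646 genes, which are marked as such below. The libraries also differed in transcripts that mark sex. Xist, the RNA of the inactive X chromosome, had 12.9 FPKM in N101D and 0.0744 FPKM in WT at 2 months. The Y-linked gene Eif2s3y had 0.122 FPKM in N101D and 11.6 FPKM in WT, and Ddx3y had 0.303 FPKM in N101D and 10.03 FPKM in WT. Genotype and sex therefore cannot be told apart at 2 months in any value below. At 4 months Eif2s3y had 10.9 FPKM in N101D and 7.32 FPKM in WT, and Ddx3y had 5.51 FPKM in N101D and 9.84 FPKM in WT. The N101D library at 2 months was thus the only library with low Y-linked values. Where that library stands apart from all others below, sex follows the same pattern and cannot be separated from it.

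Most genes had near-equal FPKM in the 2-month libraries, and those that stood apart were mainly lower in N101D. Of the 10646 genes, 408 (3.83%) were at least 2-fold lower in N101D and 64 (0.601%) at least 2-fold higher. The difference lay within 0.5 of 0 for 9230 genes (86.7%), with a median of -0.09, a 5th percentile of -0.87 and a 95th percentile of 0.36. The lower side had the longer tail, with 109 genes lower by 2 or more on the log2 scale and 52 by 3 or more, against 22 and 4 genes higher by as much. Among genes with a row in the first or second run, 392 of 10349 (3.79%) were lower and 41 (0.396%) higher. Among the 297 genes of the third run, 16 (5.39%) were lower and 23 (7.74%) higher.

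Level bore on both counts. Of 2208 genes with a mean of less than 2 FPKM, 7.7% were lower and 0.453% higher. Between 5 and 20 FPKM, 2.48% of 3632 genes were lower and 0.33% higher. Of the 60 genes with a mean of 1000 FPKM or more, 1 was lower and 22 were higher. The lower genes thus spread over the whole range of levels, while a large part of the higher ones sat among the few genes of extreme FPKM.

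**Figure D1:**
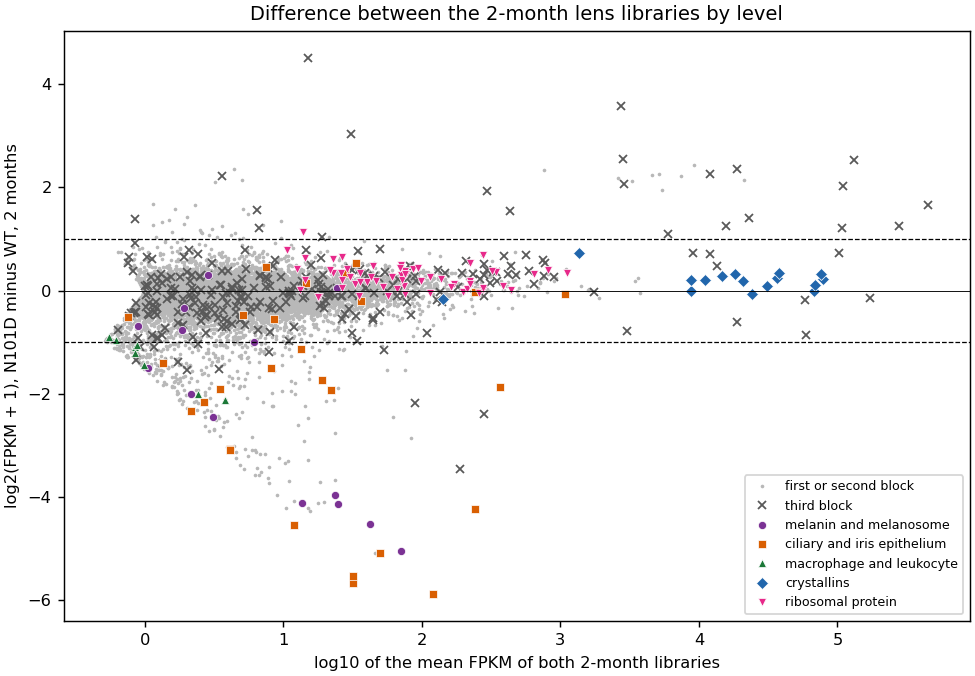
Difference of N101D minus WT (vertical, log2(FPKM + 1)) against the log10 of the mean FPKM of both 2-month libraries (horizontal), 1 point per gene, with 5 gene lists in colour and genes of the third run as crosses. Dashed lines mark 2-fold. The 13 genes listed at 0 in a library are left out. Pigment and ciliary genes reach -5 and below, crystallins lie between -0.17 and 0.73, and crosses lead the upper right.

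**Figure D2:**
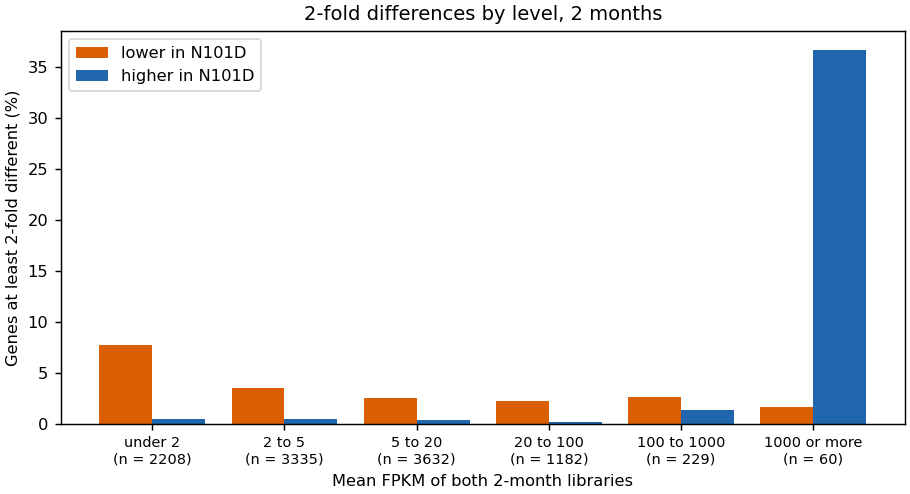
Share of genes at least 2-fold lower (left bars) or higher (right bars) in N101D than in WT at 2 months, by mean FPKM. The share of lower genes is highest under 2 FPKM, at 7.7%, and the share of higher genes at 1000 FPKM or more, at 36.7%.

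The genes furthest below WT belonged to a few kinds. Gpx3, the secreted glutathione peroxidase, had 3.07 FPKM in N101D and 239 FPKM in WT at 2 months, then 212 FPKM in N101D and 138 FPKM in WT at 4 months. The N101D library at 2 months was the only one of the 4 with a low value, and the difference was -5.88. Optc, opticin of the vitreous and ciliary body, had 0.268 FPKM in N101D and 63.3 FPKM in WT at 2 months, then 46.1 FPKM in N101D and 38.6 FPKM in WT at 4 months, with a 2-month difference of -5.66. Again the N101D library at 2 months stood apart from the other 3, which lay close to each other. The loci are Gpx3 at chr11:54716301-54776622 and Optc at chr1:135793770-135804928, in mm9 coordinates of the deposited tables. Fbln1 (fibulin), Penk (proenkephalin), Dct, Slc26a4, Gpnmb, Mfap4, Apoe, Slc6a13, Sod3 and Pmel were also among the 15 genes furthest below WT, with differences between -5.10 and -4.14. Of the 187 lower genes with 5 FPKM or more in WT and a value above 0 in N101D, 73 had less than 0.1 of the WT FPKM and 53 less than 0.05, with a median ratio of 0.187.

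**Figure D3:**
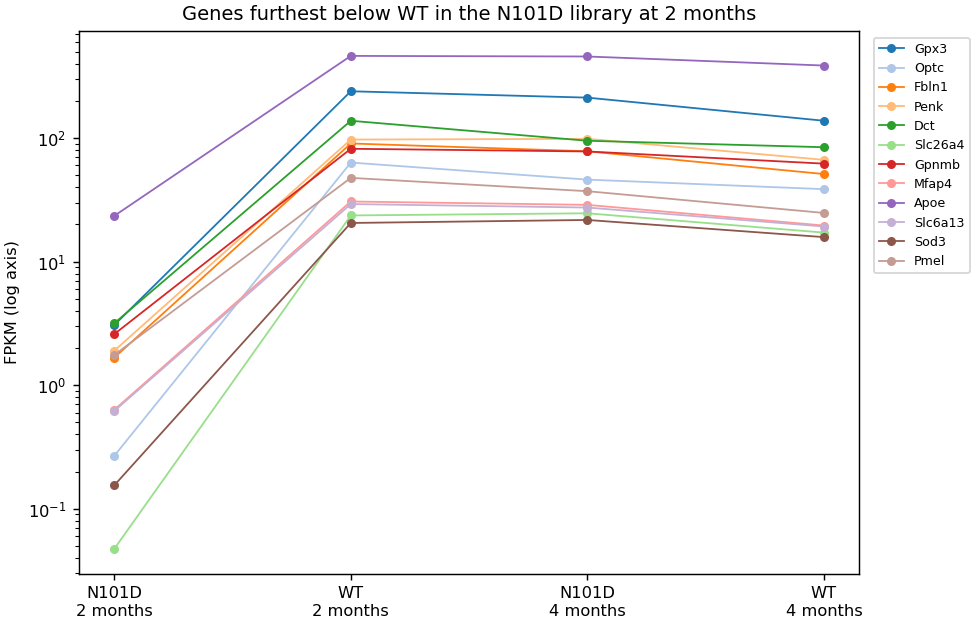
FPKM (log axis) of 12 of the genes of the first and second run with the most negative 2-month differences, in N101D and WT at 2 months and N101D and WT at 4 months; lines join the values of 1 gene. Each gene is far lower in N101D at 2 months than in the other 3 libraries.

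Melanin genes were among the lowest. Melanocytes and the pigmented epithelia make melanin in melanosomes with the enzymes Tyr, Tyrp1 and Dct on fibrils of Pmel. All 3 enzyme genes were at least 2-fold lower. Tyr had 0.262 FPKM in N101D and 5.94 FPKM in WT at 2 months, then 3.9 FPKM in N101D and 3.95 FPKM in WT at 4 months. Tyrp1 had 1.97 FPKM in N101D and 45.1 FPKM in WT, and Dct had 3.17 FPKM in N101D and 138 FPKM in WT. The melanosome proteins Pmel with 1.75 FPKM in N101D and 47.6 FPKM in WT, Mlana with 0.596 FPKM in N101D and 26.8 FPKM in WT and Gpnmb with 2.59 FPKM in N101D and 81.8 FPKM in WT lay equally far below WT. Of 14 genes of the list analysed, 8 were lower and none was higher, with a median difference of -1.75 beside the -0.09 of all genes. Summed FPKM of the list was 46.4 in N101D and 394 in WT at 2 months, then 327 in N101D and 281 in WT at 4 months. The carriers of melanosome transport split, with Rab27a at 0.262 FPKM in N101D and 4.04 FPKM in WT and Mlph at 0.0639 FPKM in N101D and 2.03 FPKM in WT, while the motor Myo5a had 1.59 FPKM in N101D and 2.26 FPKM in WT. Oca2, with 24.7 FPKM in N101D and 24 FPKM in WT, and Mitf, with 3.25 FPKM in N101D and 2.45 FPKM in WT, were represented by rows of the third run and did not differ 2-fold. In bulk tissue, fewer cells of a type and less RNA per cell cannot be told apart, which holds for every list below.

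The M-box core CATGTG, the motif bound by the melanocyte factor MITF, was searched on both strands in the 250 bases before each gene's start in RefSeq promoters of GRCm38.p6. It occurred in 5 of 14 promoters (35.7%) of the 11 analysed melanin genes that matched, against 12.3% of all 32851 promoters. The E-box core CACGTG, which cannot overlap it, was in 2 of the 14 (14.3%), against 6.02% of all promoters. The promoters of the enzyme genes, which lay furthest below WT as a group, are shown because all 3 hold the M-box core, in capitals, read as CATGTG or as its reverse complement CACATG. They run 5′ to 3′ on the strand of the gene and end at the base before the start.
Dct, chr14:118052247-118052496, minus strand: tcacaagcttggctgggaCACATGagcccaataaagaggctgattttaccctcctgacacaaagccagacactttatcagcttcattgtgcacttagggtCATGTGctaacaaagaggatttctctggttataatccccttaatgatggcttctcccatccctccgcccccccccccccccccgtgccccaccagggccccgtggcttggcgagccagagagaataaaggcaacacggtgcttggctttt
Tyrp1, chr4:80833963-80834212, plus strand: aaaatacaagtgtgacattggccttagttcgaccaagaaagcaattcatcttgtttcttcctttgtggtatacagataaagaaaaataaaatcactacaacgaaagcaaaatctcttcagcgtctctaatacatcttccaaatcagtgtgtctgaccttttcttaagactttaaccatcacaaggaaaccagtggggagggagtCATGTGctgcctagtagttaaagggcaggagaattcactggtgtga
Tyr, chr7:87493513-87493762, minus strand: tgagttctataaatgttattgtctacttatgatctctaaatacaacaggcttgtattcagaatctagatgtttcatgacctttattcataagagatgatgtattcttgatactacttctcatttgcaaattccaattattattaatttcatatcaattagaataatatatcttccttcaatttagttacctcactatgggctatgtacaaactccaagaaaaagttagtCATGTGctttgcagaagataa
Slc24a5 and Oca2, neither 2-fold different, hold the core too, and Gpnmb, far below WT, does not. The core begins 232 and 150 bases before the start in Dct, 46 before it in Tyrp1 and 21 before it in Tyr. A match describes these letters and is not a measured binding site.

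Genes of the ciliary and iris epithelium were lower to a similar degree. Of 28 analysed, 18 were at least 2-fold lower and none was higher, with a median of -1.80. The secreted proteins led, with 10 of 12 lower. Apoe, a lipid carrier, had 23.4 FPKM in N101D and 462 FPKM in WT at 2 months, then 457 FPKM in N101D and 386 FPKM in WT at 4 months. Penk had 1.9 FPKM in N101D and 97.1 FPKM in WT, and Ptgds, the synthase and carrier of prostaglandin D, had 157 FPKM in N101D and 575 FPKM in WT. The secreted chaperone Clu, with 1062 FPKM in N101D and 1108 FPKM in WT, and the Wnt inhibitor Sfrp1, with 240.5 FPKM in N101D and 245 FPKM in WT, which lens epithelium also expresses, were near equal in the pair. Of the 12 genes of ion and fluid transport, 5 were lower. The anion exchanger Slc26a4 had 0.0473 FPKM in N101D and 23.6 FPKM in WT and the bicarbonate transporter Slc4a4 had 3.8 FPKM in N101D and 12.5 FPKM in WT, while the water channel Aqp1 had 39.4 FPKM in N101D and 26.9 FPKM in WT and the carbonic anhydrase Car14 had 33.3 FPKM in N101D and 38.7 FPKM in WT. The transcription factors Zic1 and Otx1 had 0.075 FPKM in N101D and 8.14 FPKM in WT and 0.0323 FPKM in N101D and 4.24 FPKM in WT. Zic2 was listed at 0 in N101D and had 6.03 FPKM in WT, 6.13 FPKM in N101D at 4 months and 4.18 FPKM in WT at 4 months. At 4 months none of the 28 genes differed 2-fold.

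Matrix lists each held both lower and near-equal genes. In the zonule and elastic microfibril list, 7 of 14 were lower, none was higher and the median was -0.93. Fbn1, fibrillin and the main protein of zonular fibres, had 0.248 FPKM in N101D and 15.6 FPKM in WT at 2 months, then 9.92 FPKM in N101D and 7.93 FPKM in WT at 4 months. Ltbp2, which binds fibrillin, had 0.0337 FPKM in N101D and 9.71 FPKM in WT, and Efemp1 had 1.25 FPKM in N101D and 37.8 FPKM in WT. Mfap2, a microfibril protein, and Loxl1, an elastin crosslinker, stayed close, with 13.6 FPKM in N101D and 15.7 FPKM in WT and 8.95 FPKM in N101D and 10.9 FPKM in WT. In the stromal matrix list 7 of 16 were lower, with a median of -0.96. The small leucine-rich proteoglycans Prelp with 0.545 FPKM in N101D and 13 FPKM in WT and Fmod with 3.91 FPKM in N101D and 26.1 FPKM in WT were lower, whereas Ogn had 129.9 FPKM in N101D and 104 FPKM in WT. Symbols that start with Col and a digit were lower in 9 of 21 cases (42.9%), beside 3.83% of all genes. They included Col9a1 with 0.525 FPKM in N101D and 15.2 FPKM in WT and Col2a1 with 0.129 FPKM in N101D and 4.61 FPKM in WT, cartilage-type collagens also made by the ciliary epithelium for the vitreous, and Col1a1 with 0.231 FPKM in N101D and 4.44 FPKM in WT.

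The lens capsule was mostly near equal in the same libraries. Its type IV collagen genes had positive differences throughout, 0.32 for Col4a1, 0.17 for Col4a2, 0.19 for Col4a3 and 0.28 for Col4a4. Col4a1 had 542 FPKM in N101D and 433 FPKM in WT. All 5 laminin genes had negative differences, with a median of -0.25, the most negative -0.86 for Lamb2, and a sum of 33.9 FPKM in N101D and 43.5 FPKM in WT. Of 16 capsule and basement membrane genes, 2 were lower. Col18a1 had 1.97 FPKM in N101D and 27.9 FPKM in WT at 2 months, and its 4-month status was failed. Nid2, the less abundant nidogen here, had 1.22 FPKM in N101D and 4.57 FPKM in WT, and its paralogue Nid1 had 204 FPKM in N101D and 186 FPKM in WT. Of metalloproteinases and their inhibitors, 3 of 11 were lower: Adamts1 with 0.375 FPKM in N101D and 3.41 FPKM in WT, Mmp14 with 0.491 FPKM in N101D and 3.05 FPKM in WT and Timp3 with 33 FPKM in N101D and 70.7 FPKM in WT.

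Solute carriers formed the longest set of lower transport genes. Of 185 genes whose symbols start with Slc and a digit, 23 (12.4%) were lower and none was higher, beside 3.83% of all genes. Slc6a13, a transporter of GABA and taurine, had 0.618 FPKM in N101D and 29.2 FPKM in WT at 2 months, then 27.4 FPKM in N101D and 19.2 FPKM in WT at 4 months. Slc6a6, the main taurine transporter, was also lower, with 18.5 FPKM in N101D and 105 FPKM in WT. Slc4a5, a bicarbonate transporter, had 1.16 FPKM in N101D and 20.3 FPKM in WT, and the sulphate transporter Slc13a4 had 0.0772 FPKM in N101D and 8.32 FPKM in WT. Of 18 genes of the sodium pump and ion transport list, 4 were lower. Of the beta subunits of the pump, Atp1b3 differed little, with 193 FPKM in N101D and 200 FPKM in WT, while Atp1b2, with 7.95 FPKM in N101D and 18.6 FPKM in WT, was lower.

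Genes of macrophages and other leukocytes were present at low levels in WT and lower in N101D. Of 8 analysed, 6 were at least 2-fold lower and none was higher, with a median of -1.15. All 8 passed the filter through WT alone, which fixed the direction of their differences. The list, below-threshold members included, summed to 3.19 FPKM in N101D and 24.3 FPKM in WT. The lysozyme locus of Lyz1 and Lyz2 had 0.784 FPKM in N101D and 6.78 FPKM in WT, and Ctss, a lysosomal protease of antigen-presenting cells, had 0.354 FPKM in N101D and 4.47 FPKM in WT. The defining receptor Csf1r was near the threshold, with 0.176 FPKM in N101D and 1.51 FPKM in WT, and Ptprc, the pan-leukocyte marker, was under 1 FPKM in both. The classical complement genes followed the same order. C1qa had 0.0699 FPKM in N101D and 3.32 FPKM in WT at 2 months, then 3.69 FPKM in N101D and 2.58 FPKM in WT at 4 months, with C1qb at 0.177 FPKM in N101D and 2.43 FPKM in WT and C1qc at 0.148 FPKM in N101D and 2.33 FPKM in WT. Of 8 genes of the classical and lectin pathways 5 were lower, and of 4 genes of C3, the alternative pathway and regulators none was lower. The lower genes C1qa, C1qb, C1qc and C2 also passed the filter through WT alone, so their direction was fixed. The counts of these groups are therefore not a like comparison.

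Among antigen presentation genes, those called lower were mainly of class II. Class II presents taken-up antigen on dedicated cells, and class I presents a cell's own peptides on nearly all cells. Of 5 class II genes 3 were lower: Cd74, the invariant chain, with 0.284 FPKM in N101D and 7 FPKM in WT, H2-Aa with 0.0966 FPKM in N101D and 3.02 FPKM in WT and H2-Ab1 with 0.202 FPKM in N101D and 1.95 FPKM in WT. Of 8 class I genes 1 was lower, B2m, the light chain, with 6.88 FPKM in N101D and 34 FPKM in WT at 2 months, then 32.5 FPKM in N101D and 25.5 FPKM in WT at 4 months. The heavy chain gene H2-K1 had 6.04 FPKM in N101D and 10.2 FPKM in WT. Of the 8 class I genes 7 had a negative difference, beside 63.5% of all genes. The 3 class II genes called lower passed the filter through WT alone, which fixed the direction of their differences. The counts of the classes are therefore not a like comparison.

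Interferon-induced genes were lower in part only. Of 20 analysed, 4 were lower and none was higher, with a median of -0.57. Ifit3 had 0.373 FPKM in N101D and 7.05 FPKM in WT at 2 months, then 5.37 FPKM in N101D and 5.01 FPKM in WT at 4 months. Its neighbours in the same family, Ifit1 with 1.41 FPKM in N101D and 1.27 FPKM in WT and Ifit2 with 2.85 FPKM in N101D and 2.25 FPKM in WT, were near equal. Likewise Ifitm3, a membrane protein that blocks virus entry, had 2.49 FPKM in N101D and 25.5 FPKM in WT, and its neighbour Ifitm2 had 20.3 FPKM in N101D and 25.6 FPKM in WT. Isg15, a ubiquitin-like protein, had 0.139 FPKM in N101D and 1.62 FPKM in WT, and Bst2, tetherin, had 0.609 FPKM in N101D and 3.74 FPKM in WT. The kinase Eif2ak2 had 21.8 FPKM in N101D and 24.9 FPKM in WT. The core of the interferon-stimulated response element, GAAA, any 2 bases and GAAA again, on either strand, was in 8 of 21 promoters (38.1%) of the 18 analysed genes that matched, against 2.98% of all promoters. Of the 4 lower genes, Ifit3, Isg15 and Bst2 held it and Ifitm3, with the most negative difference of the list, did not, while Ifit1, near equal, held it 2 times. The promoters of Ifit3 and Bst2, lower in N101D, and of Ifit1 are shown to set the cores of genes that differed beside those of one that did not, with each core in capitals, read as it stands or as its reverse complement.
Ifit3, chr19:34583279-34583528, plus strand: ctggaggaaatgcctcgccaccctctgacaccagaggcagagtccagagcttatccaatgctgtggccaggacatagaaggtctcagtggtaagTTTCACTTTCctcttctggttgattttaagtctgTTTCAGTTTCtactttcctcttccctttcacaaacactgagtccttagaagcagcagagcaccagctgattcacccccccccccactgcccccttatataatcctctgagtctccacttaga
Bst2, chr8:71537473-71537722, minus strand: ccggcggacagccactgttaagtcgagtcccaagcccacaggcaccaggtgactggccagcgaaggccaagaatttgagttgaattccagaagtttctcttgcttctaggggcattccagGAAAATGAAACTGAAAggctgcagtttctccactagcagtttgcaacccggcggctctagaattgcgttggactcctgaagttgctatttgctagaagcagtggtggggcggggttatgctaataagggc
Ifit1, chr19:34640639-34640888, plus strand: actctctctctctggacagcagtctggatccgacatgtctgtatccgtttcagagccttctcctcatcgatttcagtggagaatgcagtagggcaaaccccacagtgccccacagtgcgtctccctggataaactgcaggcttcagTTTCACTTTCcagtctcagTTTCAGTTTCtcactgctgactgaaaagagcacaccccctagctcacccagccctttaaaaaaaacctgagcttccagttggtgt
In Ifit3 the cores begin 156 and 122 bases before the start, in Bst2 130 and 124 bases before it, where they overlap, and in Ifit1 104 and 85 bases before it.

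Endothelial genes were low in both libraries, and haemoglobin genes were more abundant. Of 7 endothelial genes analysed, 3 were lower, and the whole list summed to 6.87 FPKM in N101D and 22.3 FPKM in WT. All 7 except Egfl7 passed the filter through WT alone, which fixed the direction of their differences. Plvap, of fenestrated vessels, had 0.18 FPKM in N101D and 3.04 FPKM in WT, and the receptor Flt1 had 0.313 FPKM in N101D and 2.64 FPKM in WT. The endothelial markers Pecam1 and Cdh5 stayed under 1 FPKM in both libraries. Of 6 haemoglobin and erythroid genes 2 were lower, and the list summed to 161 FPKM in N101D and 364 FPKM in WT. Haemoglobin Hba-a1 had 37.7 FPKM in N101D and 112 FPKM in WT at 2 months, then 40.4 FPKM in N101D and 14.9 FPKM in WT at 4 months, so that N101D was lower at 2 months and higher at 4 months. Of 11 smooth muscle and pericyte genes 2 were lower, Rgs5 with 0.541 FPKM in N101D and 4.21 FPKM in WT and Notch3 with 0.104 FPKM in N101D and 1.56 FPKM in WT, while Acta2 had 153 FPKM in N101D and 149.8 FPKM in WT.

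Retinal genes did not share one pattern. Of 21 rod photoreceptor genes none differed 2-fold. Gnat1, rod transducin, had 86.4 FPKM in N101D and 114 FPKM in WT at 2 months, then 119 FPKM in N101D and 185 FPKM in WT at 4 months. Of 8 cone genes 1 was lower, beside 3.83% of all genes. It was Gngt2 with 0.134 FPKM in N101D and 2.47 FPKM in WT, which passed the filter through WT alone. Of 14 retinal pigment epithelium genes 4 were lower and none was higher, with a median of -0.82. Bmp4 had 0.179 FPKM in N101D and 3.79 FPKM in WT, Otx2 had 1.4 FPKM in N101D and 5.63 FPKM in WT, Ttr had 16.3 FPKM in N101D and 37.3 FPKM in WT and Rgr had 9.97 FPKM in N101D and 22.4 FPKM in WT, while Rpe65, the visual cycle isomerase, had 4.18 FPKM in N101D and 6.96 FPKM in WT. Among genes of other retinal neurons and glia, 4 of 15 were lower, among them Glul, glutamine synthetase, with 19.5 FPKM in N101D and 148 FPKM in WT, Trpm1 with 5.31 FPKM in N101D and 41.8 FPKM in WT and the glutamate transporter Slc1a3 with 0.657 FPKM in N101D and 5.1 FPKM in WT. Trpm1 is also expressed in melanocytes. Neuronal Snap25 had 9 FPKM in N101D and 14.5 FPKM in WT, and glial Gfap had 5.22 FPKM in N101D and 4.66 FPKM in WT. Corneal and conjunctival epithelial genes held no 2-fold difference in 8 analysed, of which 5 had a positive and 3 a negative difference. Aldh3a1, abundant in cornea, had 91.2 FPKM in N101D and 51.8 FPKM in WT. The keratin Krt12 went the other way, with 0.816 FPKM in N101D and 2.23 FPKM in WT, and passed the filter through WT alone.

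**Figure D4:**
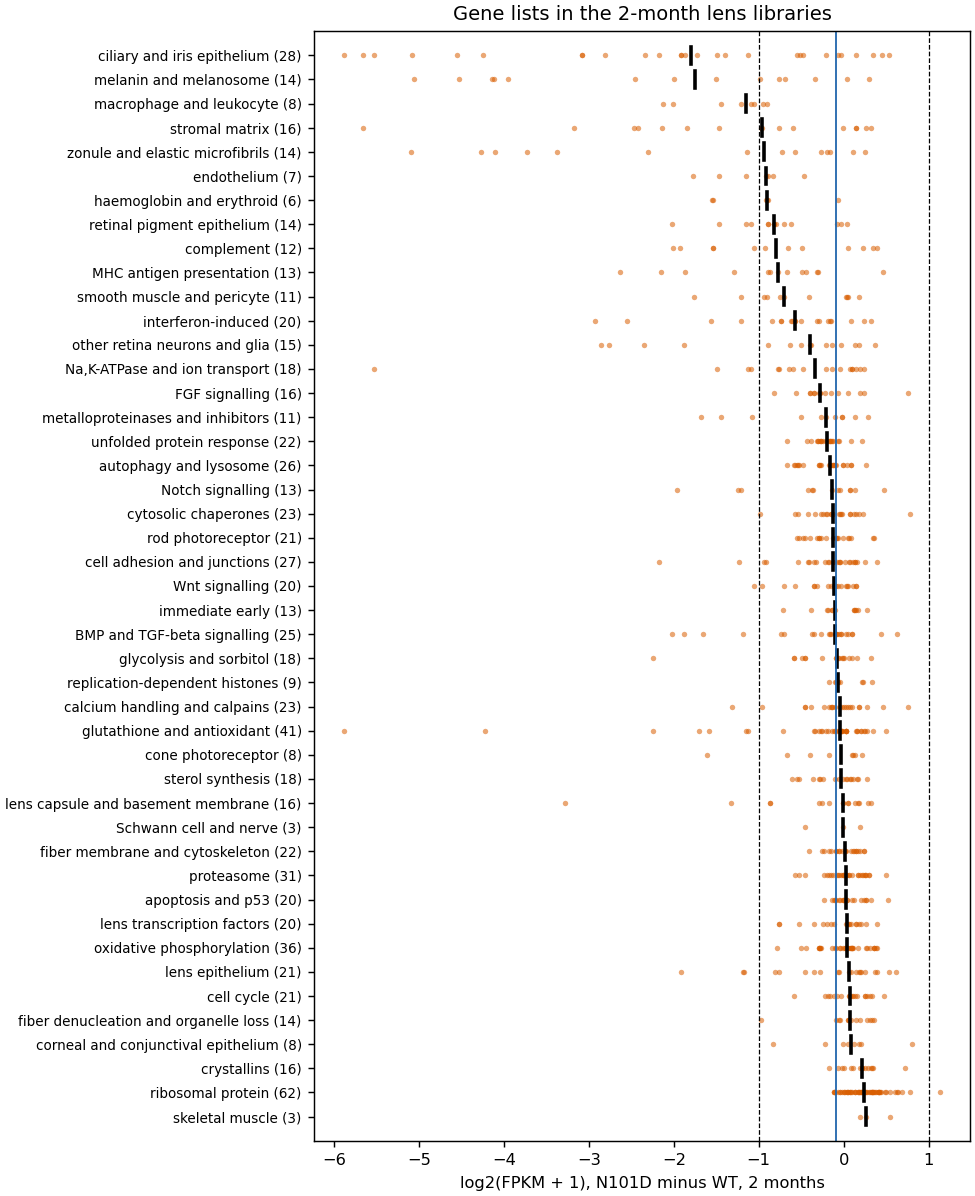
Difference of N101D minus WT at 2 months (horizontal, log2(FPKM + 1)) for the analysed genes of 45 lists, 1 point per gene, with the number analysed in brackets, a black bar at each list's median, a blue line at the median of all genes and dashed lines at 2-fold. Ciliary, melanin and macrophage lists lie furthest left, and crystallin and ribosomal protein lists lie right of the blue line.

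Lists of markers of other tissues thus differed in part, from 18 of 28 ciliary and iris genes lower to none of 21 rod and 8 corneal genes. Summed FPKM of the ciliary and iris list was 1659 in N101D and 3142 in WT at 2 months, then 2855 in N101D and 2578 in WT at 4 months. The rod list summed to 637 FPKM in N101D and 712 FPKM in WT at 2 months. The part of other tissues, of depth and of sex in the differences above was not tested.

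Crystallins were near equal or slightly higher in N101D. None of the 16 genes differed 2-fold, 12 had a positive difference, beside 36.5% of all genes, and the median was 0.21. Differences rose with level, however. The 60 genes with a mean of 1000 FPKM or more, most crystallins among them, had a median of 0.33 and a 25th percentile of 0.02. Of these 60 genes 22 were at least 2-fold higher, none of them a crystallin. Because the set contains crystallins itself, its median cannot show how they compare with other genes of like level. Cryaa, the gene of alpha A crystallin itself, had 67372 FPKM in N101D and 68167 FPKM in WT at 2 months, then 44741 FPKM in N101D and 41937 FPKM in WT at 4 months. Its partner Cryab had 23422 FPKM in N101D and 24459 FPKM in WT, so neither alpha crystallin gene stood apart. The beta crystallins lay between 0.00 for Crybb1 and 0.33 for Cryba4. Among gamma crystallins Cryga had the largest difference, 0.73, with 1700.3 FPKM in N101D and 1026 FPKM in WT, and Crygb had 84375 FPKM in N101D and 67691 FPKM in WT. Crystallin directions depend on scale: against the median of all genes the list median ranged from -0.60 under quantile normalization to 0.33 with equal medians.

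Fiber cell genes kept to the same narrow range. Of 22 membrane and cytoskeleton genes none differed 2-fold, and their differences ran from -0.41 to 0.24. Lim2, a fiber membrane protein, had 3909.6 FPKM in N101D and 3308 FPKM in WT, and the beaded filament genes Bfsp1 and Bfsp2 had 1797 FPKM in N101D and 1995 FPKM in WT and 1618 FPKM in N101D and 1581 FPKM in WT. Mip, the fiber water channel, had a failed status at 2 months and has no value here. Of 14 genes of nuclear and organelle loss none differed 2-fold. Dnase2b, the nuclease that degrades fiber DNA, had 93.7 FPKM in N101D and 84.8 FPKM in WT, and Tdrd7, of fiber RNA granules, had 259 FPKM in N101D and 276 FPKM in WT.

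Lens epithelial genes were mixed. Of 21, 3 were lower and none was higher, with a median of 0.06. The lower ones were Igfbp5 with 8.58 FPKM in N101D and 35.2 FPKM in WT, the connexin Gja1 with 46.3 FPKM in N101D and 106 FPKM in WT and the keratin Krt18 with 4.09 FPKM in N101D and 10.5 FPKM in WT. Foxe3, the epithelial transcription factor, had 26.4 FPKM in N101D and 22.7 FPKM in WT, and Cdh1, E-cadherin, had 15.7 FPKM in N101D and 11.8 FPKM in WT. None of 20 lens transcription factors differed 2-fold. Pax6, the regulator of eye development that ciliary, iris and retinal cells also express, had 27.7 FPKM in N101D and 47.5 FPKM in WT at 2 months, then 46.5 FPKM in N101D and 32.9 FPKM in WT at 4 months. Prox1 had 47.9 FPKM in N101D and 43.1 FPKM in WT, Maf had 78.8 FPKM in N101D and 77 FPKM in WT and Pitx3 had 42 FPKM in N101D and 34.9 FPKM in WT, with small positive differences.

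Antioxidant genes were mostly within 2-fold. Of 41, 7 were lower and none was higher, while the median was -0.04. Beside Gpx3, the extracellular superoxide dismutase Sod3 had 0.155 FPKM in N101D and 20.5 FPKM in WT at 2 months, then 21.7 FPKM in N101D and 15.8 FPKM in WT at 4 months. Gpx1 and Gpx4, intracellular peroxidases, had 43.2 FPKM in N101D and 43.8 FPKM in WT and 63.5 FPKM in N101D and 44.8 FPKM in WT, and Sod1 had 29.5 FPKM in N101D and 37.5 FPKM in WT. All 3 metallothioneins, which bind zinc and copper, were lower: Mt1 with 7.16 FPKM in N101D and 23.5 FPKM in WT, Mt2 with 1.69 FPKM in N101D and 7.76 FPKM in WT and Mt3 with 1.13 FPKM in N101D and 3.73 FPKM in WT. The other lower genes act inside cells, Gsta3, a glutathione transferase, with 2.26 FPKM in N101D and 14.4 FPKM in WT and Glrx, a glutaredoxin, with 0.527 FPKM in N101D and 2.34 FPKM in WT. Prdx6, a peroxiredoxin, had 60.2 FPKM in N101D and 73.7 FPKM in WT.

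Energy and protein upkeep genes mostly lay within 2-fold. Of 18 genes of glycolysis and the sorbitol pathway 1 was lower, near the 3.83% of all genes. It was Ldhb with 4.29 FPKM in N101D and 24.1 FPKM in WT. Its partner subunit gene Ldha had 68 FPKM in N101D and 54.2 FPKM in WT. None of 36 oxidative phosphorylation genes, 31 proteasome genes, 26 autophagy and lysosome genes, 18 sterol synthesis genes or 20 apoptosis and p53 genes differed 2-fold. In the unfolded protein response list none of 22 did either, and 20 had a negative difference, beside 63.5% of all genes, with a median of -0.20. Hspa5, the main chaperone of the endoplasmic reticulum, had 57 FPKM in N101D and 63 FPKM in WT, and Calr had 35.4 FPKM in N101D and 56.6 FPKM in WT. Of 23 cytosolic chaperones none differed 2-fold, with Hspb1 at 384 FPKM in N101D and 352 FPKM in WT and Hsp90ab1 at 315 FPKM in N101D and 397 FPKM in WT. Ribosomal protein genes leaned the other way. Of 62, 54 had a positive difference, beside 36.5% of all genes, 1 was 2-fold higher and the median was 0.24. Most of the list lay between 20 and 1000 FPKM. All genes with a mean of 20 to 100 FPKM had a median of 0.009, and those of 100 to 1000 FPKM had 0.12. Rps29 had 19.3 FPKM in N101D and 8.25 FPKM in WT at 2 months, then 14.9 FPKM in N101D and 28.6 FPKM in WT at 4 months, and Rpl8 had 441 FPKM in N101D and 440.5 FPKM in WT. At 4 months the median of the ribosomal list was -0.43.

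Signalling lists varied in their share of lower genes. The BMP and TGF-beta list and the Notch list held a larger share than the 3.83% of all genes. In the BMP and TGF-beta list 4 of 25 were lower, among them the ligands Bmp4, given above, and Bmp2 with 0.121 FPKM in N101D and 3.12 FPKM in WT and the co-receptor Tgfbr3 with 2.2 FPKM in N101D and 6.27 FPKM in WT. The signal transducer Smad3 had 5.18 FPKM in N101D and 4.95 FPKM in WT. In the Notch list 3 of 13 were lower: the ligand Dll1 with 0.513 FPKM in N101D and 4.9 FPKM in WT, the target Hes1 with 5.38 FPKM in N101D and 14.1 FPKM in WT and the receptor Notch3. Jag1, the main Notch ligand of lens, had 12.3 FPKM in N101D and 13 FPKM in WT. Of 20 Wnt genes 1 was lower, near the 3.83% of all genes, the co-receptor Lrp5 with 0.21 FPKM in N101D and 1.52 FPKM in WT, and none of 16 FGF pathway genes differed 2-fold, the receptors Fgfr2 and Fgfr3 having 28.9 FPKM in N101D and 27.8 FPKM in WT and 41.5 FPKM in N101D and 36.1 FPKM in WT. Of 23 genes of calcium handling 1 was lower, also near that share, Stim1, the calcium sensor of the endoplasmic reticulum, with 2.72 FPKM in N101D and 8.27 FPKM in WT. Of 27 adhesion genes 2 were lower, beside the 3.83% of all genes. They were Cldn1 with 0.336 FPKM in N101D and 5.01 FPKM in WT and Cdh11 with 0.246 FPKM in N101D and 1.92 FPKM in WT. Cell cycle genes, 21 analysed, immediate early genes, 13 analysed, and replication-dependent histones, 9 analysed, had no 2-fold difference.

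The genes higher in N101D fell into 3 sets. The first held 9 genes of the first and second run with over 1000 FPKM, all between 3.89 and 5.43 times their WT value. Mir715 had 34147 FPKM in N101D and 7768 FPKM in WT at 2 months, then 8344 FPKM in N101D and 3168 FPKM in WT at 4 months. Kpna1, an importin, had 8477 FPKM in N101D and 1757 FPKM in WT at 2 months, then 1786 FPKM in N101D and 790 FPKM in WT at 4 months. Lars2, the mitochondrial leucyl-tRNA synthetase, had 5349 FPKM in N101D and 1226 FPKM in WT, and Jarid2, a partner of Polycomb proteins, had 4289.5 FPKM in N101D and 948 FPKM in WT. The others were C230081A13Rik, 2610528E23Rik, Filip1l, Zc3h7a and Dnahc7b, of which 2610528E23Rik and Filip1l have the same locus bounds at chr16:57302112-57606998 in mm9. In all 9, N101D at 2 months was the highest of the 4 libraries and WT at 4 months the lowest, while WT at 2 months lay above N101D at 4 months in 4 genes and below it in 5. For 5 of the 9 another row of the first or second run was near equal: Jarid2 with 7.45 FPKM in N101D and 6.54 FPKM in WT, Zc3h7a with 4.92 FPKM in N101D and 4.47 FPKM in WT, Dnahc7b with 2.12 FPKM in N101D and 1.9 FPKM in WT, 2610528E23Rik with 10.5 FPKM in N101D and 8.5 FPKM in WT and C230081A13Rik with 2 FPKM in N101D and 2.67 FPKM in WT. At 4 months the ratio of N101D to WT ran from 1.92 to 2.63. The 9 genes summed to 97576 FPKM in N101D and 21268 FPKM in WT at 2 months, then to 21790 FPKM in N101D and 9526 FPKM in WT at 4 months. The row named Mir715 spans chr17:39979957-39985798 in mm9. Whether the values of these 9 rows come from transcripts of the named genes was not tested.

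**Figure D5:**
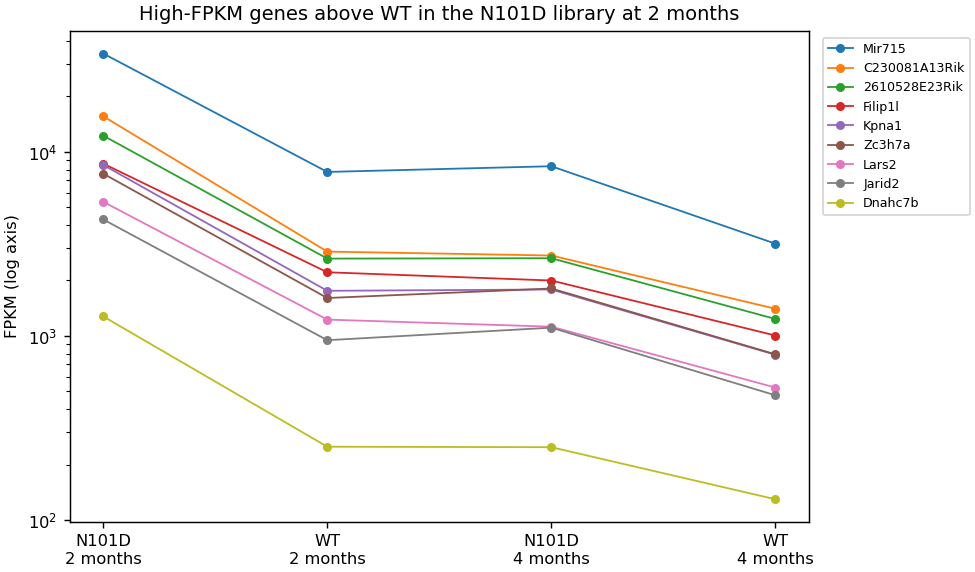
FPKM (log axis) of the 9 genes of the first and second run with 1000 FPKM or more and at least 2-fold higher values in N101D at 2 months, in N101D and WT at 2 months and N101D and WT at 4 months; lines join the values of 1 gene. The lines run nearly parallel, with N101D at 2 months highest and WT at 4 months lowest.

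The second set held 23 genes with rows of the third run. Tspan5, a tetraspanin, had 2123210 FPKM in N101D and was listed at 0 in WT at 2 months, and had 371150 FPKM in N101D and 71274 FPKM in WT at 4 months. Its row in the first or second run had 26.5 FPKM in N101D and 27.4 FPKM in WT. The same contrast held for Itga9, an integrin subunit, with 5054 FPKM in N101D and 423 FPKM in WT in the third run and 1.94 FPKM in N101D and 1.87 FPKM in WT in the others, and for Cdk8, with 31544 FPKM in N101D and 6131 FPKM in WT and 4.03 FPKM in N101D and 5.31 FPKM in WT. On the lower side, Smg6 was listed at 0 in N101D in the third run, with 273 FPKM in WT. Its other row had 6.68 FPKM in N101D and 4.12 FPKM in WT. Of the 39 genes called 2-fold different on a row of the third run, 21 had a row of 1 FPKM or more in the first or second run, and 18 of those were within 2-fold there. Defb23, with 224994 FPKM in N101D and 38652 FPKM in WT, Chl1, with 55.4 FPKM in N101D and 5.9 FPKM in WT, and Dnajc5b, with 29.5 FPKM in N101D and 0.34 FPKM in WT, had no other row at that level. Dnajc5b also had 23 FPKM in N101D and 0.38 FPKM in WT at 4 months.

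The third set held 32 genes of the first and second run with no more than 29.0 FPKM in N101D, 17 of them under 5 FPKM. 3300002I08Rik had 7.97 FPKM in N101D and 0.748 FPKM in WT at 2 months, then 0.649 FPKM in N101D and 0.559 FPKM in WT at 4 months. Wwox, an oxidoreductase, had 8.84 FPKM in N101D and 1.23 FPKM in WT, and the ubiquitin ligase Sh3rf1 had 5.83 FPKM in N101D and 0.591 FPKM in WT. These 3 genes and Cenpp had another row of the first or second run within 2-fold, and it was lower in N101D in each, with 1.26 FPKM in N101D and 2.23 FPKM in WT for 3300002I08Rik, 4.07 FPKM in N101D and 5.33 FPKM in WT for Wwox, 0.992 FPKM in N101D and 2.94 FPKM in WT for Sh3rf1 and 2.83 FPKM in N101D and 2.94 FPKM in WT for Cenpp. Ptrh2, Atpaf2 and Sirt3, all mitochondrial proteins, had 8.7 FPKM in N101D and 2.47 FPKM in WT, 14.2 FPKM in N101D and 4.95 FPKM in WT and 10.4 FPKM in N101D and 3.73 FPKM in WT. At 4 months 10 of the 32 genes were higher in N101D than in WT.

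The lower genes of 2 months did not form a lower set at 4 months. The tables of each age were made apart, so levels are set across ages with that limit. The N101D libraries of the 2 ages also differed in Y-linked transcripts, as given above. Of 10623 genes with a usable status at 4 months, 35 (0.329%) were 2-fold lower and 49 (0.461%) 2-fold higher in N101D at that age. Of the 406 genes lower at 2 months and usable at 4 months, 393 were within 2-fold at 4 months, 344 had a positive difference, beside 54.9% of all genes at 4 months, and 4 were 2-fold lower again. Their N101D value at 2 months was the lowest of the 4 libraries for 401 genes (98.8%), against 46.5% of all genes. The WT value at 2 months was the highest of the 4 for 228 (56.2%), against 24.9% of all genes. These genes were chosen for N101D values below WT at 2 months, so both shares follow largely from that choice. Both 4-month values were within 2-fold of WT at 2 months for 388 (95.6%), near the 97.9% of all genes. Of the 64 higher genes, N101D at 2 months was the highest library for 54 (84.4%), against 20.1% of all genes. That share, too, follows largely from how the genes were chosen. At 4 months 15 of the 64 were 2-fold higher again.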

How the data were processed

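Lens RNA libraries of N101D and WT transgenic mice at 2 and 4 months were used, 1 per group. The authors deposited FPKM values per locus. Per the submitters' processing notes, CASAVA 1, TopHat 1.2.0, Cufflinks 1.0.3 and Cuffdiff were used with genome build mm9. No source used here gives the version of Cuffdiff, the annotation or the use of strand. The tables held 44597 loci each, of which 15488 had no symbol, and 33 whose symbols had turned into dates were left out. At 2 months 289 loci had a failed status, and 1259 named loci lay on X or Y. Of 20458 symbols left, 9812 stayed under 1 FPKM in both libraries. For 336 genes the locus held several symbols, whose values cannot be separated.

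From the FPKM, log2(FPKM + 1) differences, counts past 2-fold and list medians were computed with Python 3 tools (numpy 2.4.6, pandas 2.3.3). With 1 library per group no test was possible. The computation was tested on simulated data. Depth was estimated from the steps between low FPKM values, after subtracting 164 bases from gene length in N101D and 159 in WT. Promoter sequences are from RefSeq on GRCm38.p6 and are named by symbol, since the builds differ. The genes and lists were chosen with earlier results of these data known. Named genes are the 15 largest differences each way at 5 FPKM or more, up to 4 leading members of each list at 2-fold, all crystallins, genes at 0 in 1 library, sex-linked genes and the 10 highest 2-fold genes. Where a list had no 2-fold member its 2 most abundant genes were named. Other list members and the further genes of highest or lowest difference were named after their values were seen. Some genes under these rules are not reported here, but stay in the counts and list medians.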

Additional observations from a re-analysis of the deposited data

Results flagged for a closer look

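For 7 genes the 2-month and 4-month differences had opposite signs and were both at least 2-fold. The contrast between ages rests on 1 library per group and was not tested. The difference of Wwox was 2.14 at 2 months but -1.19 at 4 months, with 8.84 FPKM in N101D and 1.23 FPKM in WT at 2 months, then 2.37 FPKM in N101D and 6.69 FPKM in WT at 4 months. Another row of Wwox had 4.07 FPKM in N101D and 5.33 FPKM in WT at 2 months. That of Uox, urate oxidase, was 1.25 at 2 months but -1.28 at 4 months, with 5.5 FPKM in N101D and 1.73 FPKM in WT at 2 months, then 0.855 FPKM in N101D and 3.51 FPKM in WT at 4 months. For Hba-a1 it was -1.55 at 2 months but 1.38 at 4 months, and for Hba-a2 -1.54 and 1.34, with 28.2 FPKM in N101D and 83.9 FPKM in WT at 2 months, then 30.6 FPKM in N101D and 11.5 FPKM in WT at 4 months. The others had rows of the third run. Fbxo8 stood at -3.46 and 1.46, Pcsk2 at 1.67 and -4.20, and Ptger3 at 2.04 and -1.90, in the order of age. The row of Fbxo8 in the first or second run had 5.32 FPKM in N101D and 6.41 FPKM in WT at 2 months. The alpha haemoglobin genes are near-identical copies that can share reads.

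Xist lies on a chromosome left out of the comparison, and its 12.9 FPKM in N101D stood beside 0.0744 FPKM in WT at 2 months. Its status was failed at 4 months.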

How the results depend on the processing

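No paired analysis was possible because each group had 1 library. For the same reason no library could be left out. With a pseudocount of 0.1 FPKM, 710 genes were 2-fold lower and 116 higher. With 5 FPKM it was 112 and 30. At a filter of 5 FPKM, 190 were lower and 46 higher, and with loci of status OK alone 196 and 40 of 5931 genes, since fewer genes were left. Equal totals without the crystallins, which the third run dominates, moved the median of all genes to -1.70 and gave 10213 lower and 7 higher, a 99.9% share lower against 86.4%. The same over the first and second run, added after seeing the data, gave -0.48, 803 lower and 38 higher. Quantile normalization gave a median of 0.0429 with 272 lower and 84 higher (76.4% lower), and equal medians gave 0.0373 with 345 lower and 74 higher. No filter, summed loci, X and Y kept and the first and second run alone left the counts within 1.5 times. The last gave 396 lower and 43 higher. X and Y kept and the first and second run alone were also added after seeing the data.

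Of 2271 recomputed values for 197 named genes, 2075 stayed near the reported value, 174 moved and 22 reversed. Equal totals without the crystallins reversed Ptrh2 (-0.0856), Atpaf2 (-0.37), Sirt3 (-0.38), Uox (-0.20), Rps29 (-0.65), Gm7120 (-0.43), Gpr27 (-0.44), the Rpl34 locus (-0.80), Zmat5 (-0.71), Pomt1 (-0.57), Ints5 (-0.58), Pcsk2 (-0.25), 4933404O12Rik (-0.67), Tcea1 (-0.71), 2900092C05Rik (-0.51) and Cntnap5b (-0.67). Pcsk2 reached -1.43 under quantile normalization. The first and second run alone took another row and gave 0.59 for Smg6, -0.0427 for Tspan5, -0.40 for Luzp1, -0.33 for Cdk8 and -0.00507 for 2010321M09Rik. Of 537 list medians 1 reversed, smooth muscle and pericyte at 0.0395 with the 5 FPKM filter, which left fewer genes. Relative to the median of all genes, 18 lists stayed below 0 in all 13 settings. Among them were the melanin, ciliary, zonule, stromal matrix, macrophage, complement, haemoglobin, class I and II, interferon and pigment epithelium lists. The rest were the rod, other retina, unfolded protein response, autophagy, sodium pump, FGF, BMP and Notch lists. Some of these stayed below by little, with a highest value of -0.0015 for BMP and -0.02 for rods. The N101D library had fewer fragments, so values under 1 FPKM rest on few reads there.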

Other observations

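Beyond the lists, other lower genes were of several kinds. Reln, an extracellular signal of neurons, had 0.431 FPKM in N101D and 23.3 FPKM in WT, and Vcan, a large matrix proteoglycan, had 0.0227 FPKM in N101D and 10.3 FPKM in WT. Crhbp, a binding protein of corticotropin-releasing hormone, had 0.196 FPKM in N101D and 17.8 FPKM in WT, and Igfbp4, which binds insulin-like growth factors, had 0.314 FPKM in N101D and 15.2 FPKM in WT. Best2, a chloride channel of the ciliary epithelium, had 0.0658 FPKM in N101D and 9.06 FPKM in WT at 2 months, then 8.23 FPKM in N101D and 5.04 FPKM in WT at 4 months. The mitochondrial carrier Ucp2 had 1.74 FPKM in N101D and 35.1 FPKM in WT, and Mgll, a lipase that ends endocannabinoid signals, had 2.59 FPKM in N101D and 44.6 FPKM in WT. Serpina3n, a protease inhibitor, had 1.04 FPKM in N101D and 34.4 FPKM in WT, and Il33, a nuclear cytokine, had 0.684 FPKM in N101D and 14.1 FPKM in WT. In each of these the 2-month N101D value lay below the other 3 libraries.

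Of 22 genes whose symbols start with Cox and a digit 3 (13.6%) were lower, beside 3.83% of all genes: Cox8b with 0.948 FPKM in N101D and 17.5 FPKM in WT, Cox6b2, a testis isoform, with 1.24 FPKM in N101D and 4.83 FPKM in WT and Cox7a1 with 0.176 FPKM in N101D and 1.86 FPKM in WT. The widely expressed Cox8a had 263 FPKM in N101D and 259.8 FPKM in WT. Of 15 aldehyde dehydrogenase genes by symbol 4 (26.7%) were lower, among them Aldh2 with 6.63 FPKM in N101D and 24.1 FPKM in WT. Of 19 phosphodiesterase genes by symbol 4 (21.1%) were lower, among them Pde1a with 0.0416 FPKM in N101D and 5.42 FPKM in WT. These families were read off symbols after the values were seen.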
